A study of Mus musculus with 6 samples.

Results

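The *Hox* genes are the homeobox transcription factor genes of the HoxA, HoxB, HoxC and HoxD clusters. They were followed here in the brain of male mice of the inbred albino strain BALB/c, through every probe whose platform gene symbol was *Hox*, a cluster letter and a number. By this rule 41 of the 24048 probes were members, and they stood for 36 *Hox* cluster genes. The HoxA cluster had 10 genes on 14 probes, HoxB 10 genes on 10 probes, HoxC 8 genes on 9 probes and HoxD 8 genes on 8 probes. *Hoxa9* had 3 probes, *Hoxa3*, *Hoxc6* and *Hoxa10* had 2 each, and every other gene had 1. The family was selected on measured values of these same arrays, since *Hoxa5* and *Hoxb5* were already known to be lower in the mice given OPP. Their values are therefore a description. The standard errors rest on the spread between arrays, drawn towards that of all tested probes, so they can be smaller than the gene's own spread would give. The calls of the fit across all probes are printed only beside the background and support nothing here.

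The study asked how an oil palm phenolic preparation (OPP) changes gene expression in the brain. Brains were taken at 12 weeks of age from 3 mice given OPP at 1500 ppm gallic acid equivalent as their drinking fluid for 6 weeks, and from 3 controls given distilled water, and both groups ate a normal diet. Each brain's RNA was measured on an Illumina MouseRef-8 array, where every probe sits on a set of beads whose brightness (intensity) follows the amount of the matching transcript. The methods do not say whether the whole of each brain was extracted. They state that RNA samples were chosen by their integrity and that outlier arrays had been removed. The spread between the 3 arrays of a group is what remained after those steps. It is also not stated which mice shared a cage, and if each group had a cage of its own, cage and treatment cannot be told apart.

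*Hox* genes lie in each cluster in the order in which they act along the body. Genes at the 3′ end (paralog groups 1 to 4) are switched on first and pattern the hindbrain, and genes at the 5′ end (groups 9 to 13) pattern the lower spinal cord, limbs and trunk. The group 5 genes between them mark the border of the hindbrain and the cervical spinal cord. Retinoic acid induces the 3′ genes, Polycomb proteins keep the clusters silent where they are not used, and TALE homeodomain proteins of the Pbx and Meis families bind DNA together with the Hox proteins. The forebrain and midbrain develop without *Hox* expression, while parts of the adult brainstem keep it.

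The promoter of *Hoxa5* is printed because *Hoxa5* was among the pair of *Hox* genes above background on all arrays of 1 group. For *Hoxb5*, the other gene of the pair, no promoter sequence was at hand. It is the RefSeq sequence of GRCm38.p6, chr6:52204538-52204837, minus strand, from 250 bases before to 50 bases after the start of the gene, and the capitals mark the retinoic acid receptor half-site AGGTCA.
Hoxa5 promoter: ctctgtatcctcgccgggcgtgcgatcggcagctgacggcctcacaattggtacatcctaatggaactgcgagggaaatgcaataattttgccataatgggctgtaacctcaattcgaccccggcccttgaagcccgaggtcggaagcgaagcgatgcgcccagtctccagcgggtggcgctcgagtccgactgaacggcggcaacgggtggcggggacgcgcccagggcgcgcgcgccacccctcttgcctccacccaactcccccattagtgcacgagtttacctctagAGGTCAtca
It is 61.7% G and C and holds 29 CpG dinucleotides. Of the motifs searched on both strands, it held the half-site AGGTCA once, at position 292 counted from its 5′ end. That is base 42 from the start site, within the gene. It held neither the Pbx and Hox composite site TGATNNAT, nor the Cdx site TTTATG, nor the homeodomain core TAATTA, and none of these overlaps AGGTCA. Among all 32851 promoters of the same length, 16.3% held AGGTCA, 8.85% TGATNNAT, 11.9% TTTATG and 5.29% TAATTA. Among 24 promoters of 22 *Hox* genes, 7 held AGGTCA, 4 TGATNNAT, 5 TTTATG and 2 TAATTA. These matches describe the letters and are not known binding sites.

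Of the 36 *Hox* genes, 5 were above background on at least 1 array, namely *Hoxb2*, *Hoxb4*, *Hoxa5*, *Hoxb5* and *Hoxc8*, and 31 were above background on none. Above background means a detection p under 0.01, where the detection p is the share of negative control beads that were as bright as the probe. In probes, 5 of 41 *Hox* probes (12.2%) were above background on at least 1 array, against 37.6% of all probes on the array. The arrays of mice given OPP had 2, 2 and 1 of these genes above background, and the control arrays had 4, 5 and 2. *Hoxb2* and *Hoxc8* were the genes on OPP arrays 1 and 2, and *Hoxb4* the gene on OPP array 3. Control array 1 had *Hoxb2*, *Hoxb4*, *Hoxa5* and *Hoxb5*, control array 2 had all 5, and control array 3 had *Hoxa5* and *Hoxb5*. *Hoxa5* and *Hoxb5* were thus the genes that all control arrays shared, and no *Hox* gene was above background on all 3 OPP arrays. The family was selected on this pair, so no difference of the family is read from the counts. Without the pair, control array 1 had *Hoxb2* and *Hoxb4*. Control array 2 then had *Hoxb2*, *Hoxb4* and *Hoxc8*, and control array 3 had no *Hox* gene.

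**Figure D1:**
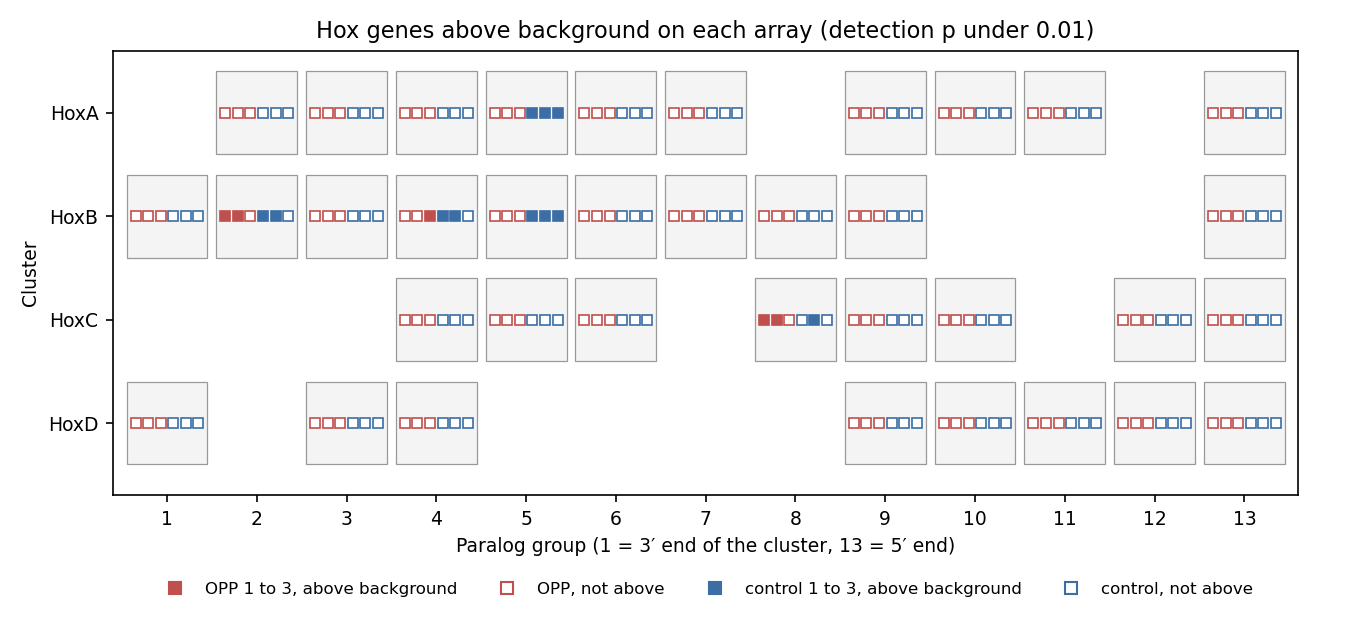
Detection of the 36 *Hox* genes on the 6 arrays, with the paralog group on the horizontal axis and the cluster on the vertical axis. In each box the 3 red squares are the OPP arrays and the 3 blue squares the control arrays, filled where the detection p was under 0.01 for at least 1 probe of the gene, and the boxes of *Hoxa5* and *Hoxb5* are filled on all 3 control arrays and on no OPP array.

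The detected genes lay in the 3′ and middle parts of the clusters. In paralog groups 1 to 4, 2 of 11 genes were above background on at least 1 array (*Hoxb2* and *Hoxb4*), in group 5 2 of 3 were (*Hoxa5* and *Hoxb5*), and in groups 6 to 8 1 of 7 was (*Hoxc8*). None of the 15 genes of groups 9 to 13 was, and the lowest detection p among their 18 probes was 0.0398, for *Hoxa9* on control array 2. By cluster, HoxA had 1 detected gene, HoxB 3, HoxC 1 and HoxD none of 8. Just inside the limit was *Hoxb4*, whose lowest detection p was 0.00362. Just outside it were *Hoxc6*, a gene of limb-innervating motor neurons (0.0157), *Hoxb6* (0.0181) and *Hoxa9* (0.0398). At a detection p under 0.05 these 3 genes joined the others, which made 8 genes, and at a detection p under 0.001 *Hoxb4* dropped out, which left 4.

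*Hoxb5*, a gene of the neural crest that forms the enteric nervous system and of the developing lung, was at background in the mice given OPP and well above it in the controls. Its scaled intensity was 163, 206 and 160 in the mice given OPP, against 643, 726 and 635 in the controls. All 3 OPP values lay below all 3 control values, and the lowest control was far above the highest OPP array. The mean was 176 ± 25.8 in the mice given OPP and 668 ± 50.2 in the controls (SD, n = 3 each). The detection p was 0.755, 0.264 and 0.805 in the mice given OPP and 0 in each of the controls, so that in the OPP arrays the probe was no brighter than many beads without a target. The log2 fold change was -1.93 (standard error 0.13 from limma).

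*Hoxa5*, which patterns the cervical skeleton and the respiratory system and stays on in the brainstem of the mouse, followed the same pattern with a wider spread among the controls. Its scaled intensity was 149, 190 and 183 in the mice given OPP, against 383, 581 and 385 in the controls. The groups did not overlap here either, and control array 2 was the brightest by a wide margin. The mean was 174 ± 21.8 in the mice given OPP and 449 ± 114 in the controls (SD, n = 3 each). The detection p was 0.896, 0.439 and 0.476 in the mice given OPP and 0 in each of the controls. The log2 fold change was -1.35 (standard error 0.18 from limma), and -1.15 without control replicate 2. In a bulk extract, fewer cells of a type and less RNA per cell cannot be told apart.

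**Figure D2:**
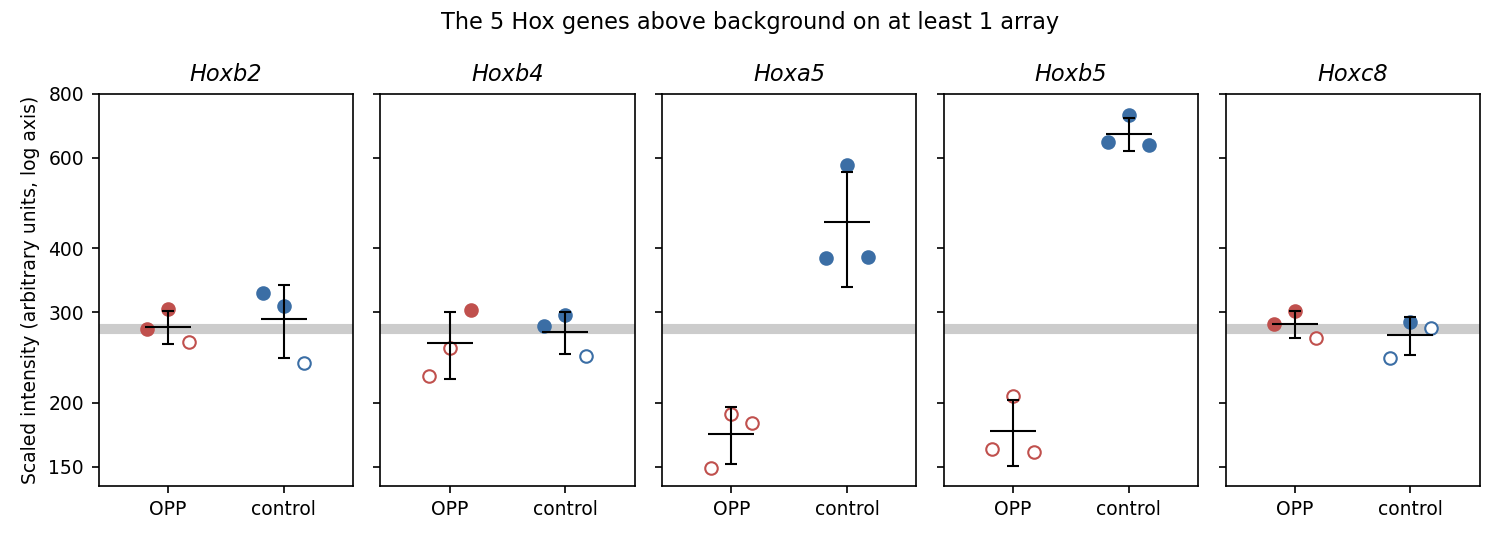
Scaled intensity of the 5 *Hox* genes above background on at least 1 array, 1 point per array (red OPP, blue control, filled where the detection p was under 0.01, log axis), with mean and SD in black and the range over arrays of the lowest intensity above background (273 to 284) as a grey band. The control points of *Hoxb5* lie at 635 to 726 and its OPP points at 160 to 206, while the points of *Hoxb2*, *Hoxb4* and *Hoxc8* sit around the band in both groups.

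Since *Hoxb5* and *Hoxa5* were not above background on any OPP array, the size of the difference is only bounded. Setting each OPP array at the lowest scaled intensity that was above background there (273 to 282), the controls exceeded the mice given OPP at least 2.41-fold for *Hoxb5* and at least 1.59-fold for *Hoxa5*. Without control replicate 2, the bounds were 2.31-fold for *Hoxb5* and 1.39-fold for *Hoxa5*. The intensities contain 174 to 209 units of background per array, which the authors removed from their own background-subtracted values. On those values *Hoxb5* stood at -21.4, 17.2 and -24.4 in the mice given OPP, against 442.9, 588.7 and 457.8 in the controls. *Hoxa5* stood there at -35.3, 0.5 and -1.3 in the mice given OPP, against 192.9, 430.3 and 202.7 in the controls. Values around 0 are what background subtraction leaves of a probe with no measured signal. The bounds on these values were at least 5.31-fold for *Hoxb5* and at least 2.76-fold for *Hoxa5*, and without control replicate 2 they were 4.86-fold and 2.13-fold.

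Few probes on the array were above background on all control arrays and on no OPP array. There were 7 such probes (0.0291% of 24048), and with *Hoxb5* and *Hoxa5* they were those of *Ltf*, *Gchfr*, *Ecm1*, *Tor4a* and *Calr3*. The opposite pattern, above background on all OPP arrays and on no control array, was seen for 33 probes (0.137%), none of them a *Hox* probe. *Ltf*, which encodes the granulocyte protein lactoferrin, had a scaled intensity of 272, 273 and 259 in the mice given OPP, against 547, 3535 and 481 in the controls.

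*Hoxb2*, *Hoxb4* and *Hoxc8* were at the limit of detection in both groups. *Hoxb2*, which with its 3′ neighbour *Hoxb1* shapes the rhombomere that gives rise to the facial nerve, had a scaled intensity of 278, 304 and 262 in the mice given OPP, against 328, 309 and 239 in the controls. It was above background on 2 arrays of each group, and its log2 fold change was -0.04 (standard error 0.14). *Hoxb4*, a gene of the posterior hindbrain also known from blood stem cells, had 225, 255 and 303 in the mice given OPP, against 282, 296 and 246 in the controls, and its log2 difference was -0.08. *Hoxc8*, a gene of brachial motor neurons, had 285, 302 and 268 in the mice given OPP, against 245, 287 and 279 in the controls, and its log2 fold change was 0.08 (standard error 0.11). The groups overlapped for all 3 genes, and each gene had an OPP array and a control array that was not above background.

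In the order of RefSeq, *Hoxa5* lies between *Hoxa4* and *Hoxa6*. *Hoxa4* had a scaled intensity of 154, 152 and 167 in the mice given OPP, against 152, 164 and 152 in the controls. *Hoxa6* had 166, 211 and 168 in the mice given OPP, against 185, 208 and 179 in the controls. *Hoxb6*, the 5′ neighbour of *Hoxb5*, had 215, 258 and 228 in the mice given OPP, against 245, 272 and 223 in the controls. On the other side of *Hoxb5* lie *Hoxb3*, with 158, 161 and 147 in the mice given OPP, against 163, 149 and 167 in the controls, and *Hoxb4*, whose values at the limit of detection are given above. All of these overlapped between the groups, and none but *Hoxb4* was above background on any array. *Hoxc5*, the remaining paralog of group 5, was not above background either, at 128, 157 and 149 in the mice given OPP and 132, 136 and 127 in the controls. A probe below the limit has only an upper bound, so that a difference was not measurable in the genes of this paragraph other than *Hoxb4*.

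Leaving out *Hoxa5* and *Hoxb5*, the 39 other *Hox* probes had log2 differences of -0.31 to 0.23 with a median of -0.02, beside a median of 0.00 over all probes. All 3 OPP arrays lay below all 3 control arrays for 10 of the 41 *Hox* probes (24.4%), against 4.56% of all probes. All 3 OPP arrays lay above for 2 of the 41, against 4.98% of all probes, and 29 overlapped. With *Hoxa5* and *Hoxb5*, the probes below were those of *Hoxd3*, *Hoxc4*, *Hoxd4*, both of *Hoxc6*, 2 of 3 of *Hoxa9*, and that of the digit-patterning gene *Hoxd12*. The probes above were those of *Hoxb8*, a gene of the dorsal spinal cord and of a microglia lineage, and *Hoxd11*, a gene of the forelimb. Apart from *Hoxa5* and *Hoxb5*, none of these probes was above background on any array. Since *Hoxa5* and *Hoxb5* are the genes on which the family was selected, 8 of the 39 other probes were below, with *Hoxc6* and *Hoxa9* giving 2 probes each. Of the 14999 probes of the whole array that were never above background, 4.45% were below and 5.43% above. On the authors' background-subtracted values the same 10 probes were below, beside 5.16% of all probes, and 3 were above (*Hoxa3*, *Hoxb8* and *Hoxd11*), beside 4.53%. Without scaling between arrays the probes below were those of *Hoxa5*, *Hoxb5* and 1 other, *Hoxd4*, beside 1.17% of all probes, and the same 3 as on the authors' values were above, beside 6.93% of all probes.

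*Hoxd4*, whose border of expression lies in the posterior hindbrain, was on no array above background. Its scaled intensity was 171, 176 and 174 in the mice given OPP, against 208, 225 and 216 in the controls, a log2 difference of -0.31. The brighter probe of *Hoxc6* had 241, 242 and 250 in the mice given OPP, against 252, 273 and 257 in the controls, and the dimmer one 163, 180 and 171 in the mice given OPP, against 196, 235 and 185 in the controls. The probe of *Hoxa9* nearest to the limit had 232, 223 and 231 in the mice given OPP, against 238, 255 and 235 in the controls. These groups did not overlap. The gaps were narrow for *Hoxc6* and *Hoxa9* and wider for *Hoxd4*, and no value was above background.

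By cluster, the median log2 difference was -0.04 over the HoxA probes, -0.04 over HoxB, -0.02 over HoxC and 0.00 over HoxD. Without scaling between arrays these medians were 0.01, 0.02, 0.03 and 0.06, so that no direction is given for a cluster. The median differed from 0 by more than 0.2 in group 5 alone, where it was that of *Hoxa5*. In the other 12 paralog groups it ran from -0.13 (group 4) to 0.14 (group 8). Scaled intensities in groups 9 to 13 lay between 127 and 255 on all arrays.

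**Figure D3:**
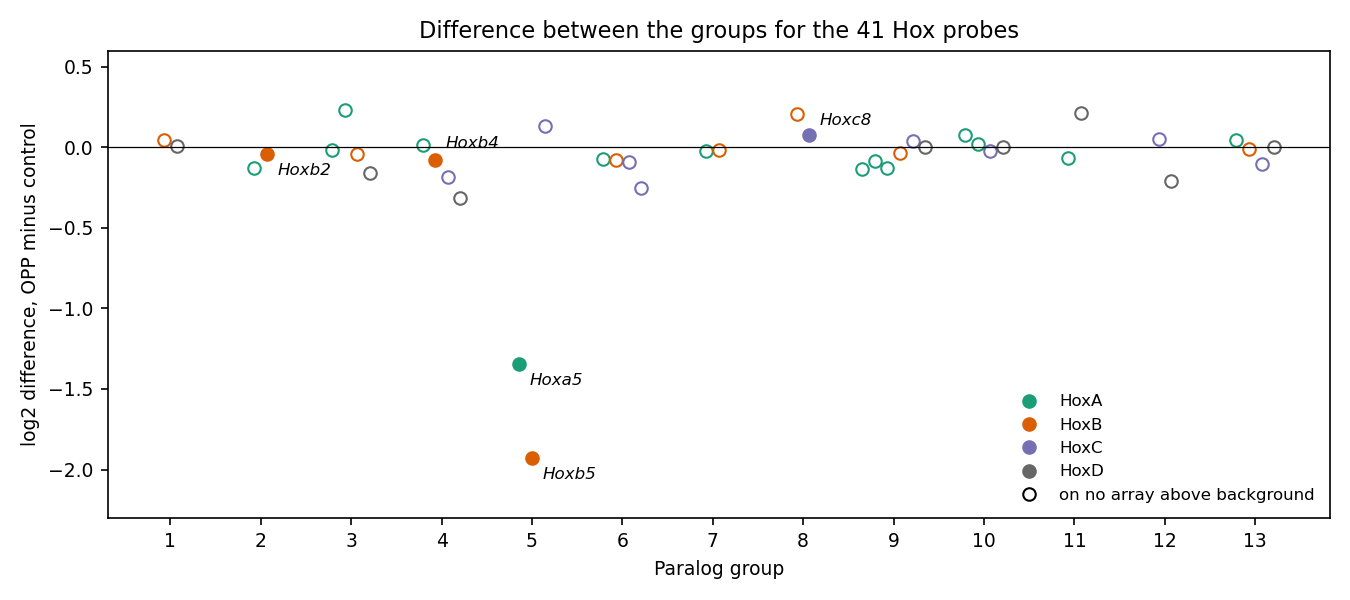
Log2 difference, OPP minus control, of each of the 41 *Hox* probes by paralog group, coloured by cluster, with open circles for probes that were on no array above background. *Hoxb5* (-1.93) and *Hoxa5* (-1.35) lie apart from the other 39 probes, which run from -0.31 to 0.23.

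Only 4 *Hox* probes entered the fit across 7611 probes, which took those whose detection level averaged over 0.99 in the OPP group, the controls or both. *Hoxa5* and *Hoxb5* entered through the controls, and *Hoxb2* and *Hoxc8* through the mice given OPP. *Hoxb5* was the 1 *Hox* probe at an adjusted p under 0.05 (limma with Benjamini-Hochberg adjustment), and it was the 1 probe lower among all 7611 (0.0131%), beside 0 higher (0%). At an unadjusted p under 0.05, 2 of the 4 were lower, *Hoxa5* and *Hoxb5*, beside 160 of all probes (2.1%), and none was higher, beside 135 (1.77%). These counts come from the contrast on which the genes were selected and nothing is read from them.

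On the arrays as a whole, 31.8 to 32.9% of probes were above background in the mice given OPP and 30.9 to 31.7% in the controls. The arrays correlated at 0.954 to 0.987 over the tested probes, and control replicate 2 stood apart, at 0.961 and 0.962 with the other controls, which correlated at 0.987 with each other. Of the neuronal genes in the lists below, *Camk2a*, *Nrgn*, *Slc17a7* and *Slc32a1* were above background on all 6 arrays, which goes with the label of brain. Other neuronal genes, such as *Nefl*, *Neurod6* and *Calb1*, were on no array above background. Precision is limited by the 3 arrays per group.

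Among the genes of proteins that bind DNA with Hox proteins, *Meis1* was lower in the mice given OPP before adjustment and the others were not called. Of 9 TALE cofactor genes, 7 were on the array, 6 were above background on at least 1 array and 5 entered the fit, of which 0 were higher and 1 was lower at an unadjusted p under 0.05, none after adjustment, beside 2.1% of all tested probes lower and 1.77% higher. Their median log2 fold change was -0.03 (0.03 without scaling between arrays), beside 0.00 over all tested probes. *Meis1*, which binds DNA beside Hox proteins of many groups, had a scaled intensity of 355, 295 and 242 in the mice given OPP, against 495, 390 and 365 in the controls. The groups did not overlap (log2 fold change -0.49, standard error 0.16, adjusted p = 0.988 from limma). *Pbx3* had 285, 248 and 286 in the mice given OPP, against 298, 353 and 292 in the controls, which did not overlap (-0.20, standard error 0.12), and it was not called. *Meis2*, *Pbx2* and *Pknox1* were above background on all arrays, and their groups overlapped.

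None of the tested genes that switch the clusters on or keep them silent passed at an unadjusted p under 0.05. Over all tested probes 2.1% were lower and 1.77% higher, and 0 in lists this short is near those shares. Of 29 regulators, from Polycomb and trithorax proteins to the Cdx and early hindbrain factors, 10 entered the fit and 0 passed either way at an unadjusted p under 0.05 (median log2 fold change -0.04, and 0.02 without scaling between arrays). *Eed*, a Polycomb subunit that binds the silencing mark, stood at 0.17 (log2 fold change, standard error 0.10), and *Phc2*, a Polycomb subunit of the other complex, at -0.20 (standard error 0.12). *Cdx1*, *Cdx2* and *Cdx4*, which drive the 5′ *Hox* genes in the embryo, were on no array above background. Of 19 genes of the retinoic acid pathway, 4 entered the fit and 0 passed either way (median -0.07, which was -0.22 without control replicate 2 and 0.03 without control replicate 3). *Rxrg*, a retinoid X receptor gene, had 0.28 (standard error 0.21), and *Cyp26b1*, which degrades retinoic acid, had -0.16 (standard error 0.19). Of 18 genes that flank the clusters, 7 entered the fit and 0 passed either way (median 0.08), with *Snx10*, a sorting nexin gene beyond HoxA, at 0.24 (standard error 0.11) and *Smug1*, a uracil-DNA glycosylase gene beyond HoxC, at 0.15 (standard error 0.10).

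Genes listed for the hindbrain, the brainstem and other parts of the brain were followed, because the share of each region in an extract can differ. Not all of them are particular to the region they are listed for. Those on no array above background could not follow it. Beside the counts of these lists, 2.1% of all tested probes were lower and 1.77% higher at an unadjusted p under 0.05. Of 33 hindbrain and spinal cord transcription factor genes outside the clusters, 27 were on the array, 13 were above background on at least 1 array and 7 entered the fit, of which 0 passed either way (median 0.05, which ran from -0.20 without OPP replicate 3 to 0.08 without OPP replicate 2). Their mean log2 intensity was 8.41, 8.47 and 8.56 in the mice given OPP, against 8.69, 8.39 and 8.59 in the controls. *Lhx1*, a LIM homeobox gene of hindbrain and spinal interneurons, stood at -0.44 (log2 fold change, standard error 0.24), and *Gata2*, a gene of midbrain and brainstem inhibitory neurons, at -0.17 (standard error 0.10). *Isl1*, *Gbx2*, *En1* and the inhibitory neuron genes *Gata2* and *Tal1* were above background on all 6 arrays. *Phox2a*, *Lmx1b*, *Gata3*, *Tlx3* and *Mnx1* were among those above it on none.

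Of 26 genes of brainstem neurons, 9 entered the fit, of which 0 were higher and 1 was lower at an unadjusted p under 0.05, none after adjustment (median -0.11, with -0.23 when control replicate 2 was left out and 0.00 when OPP replicate 1 was). Over all tested probes, 2.1% were lower and 1.77% higher before adjustment. The mean log2 intensity of the list was 9.09, 9.43 and 9.38 in the mice given OPP, against 9.55, 9.20 and 9.57 in the controls. The gene that was lower was *Slc32a1*, the vesicular transporter of GABA and glycine. It also served above as a general neuronal marker and is not particular to the brainstem. Its scaled intensity was 7300, 6946 and 5762 in the mice given OPP, against 8008, 8150 and 8648 in the controls (log2 fold change -0.32, standard error 0.12, adjusted p = 0.988 from limma). The glycine transporter gene *Slc6a5*, the glycine receptor gene *Glra1*, the noradrenaline enzyme gene *Dbh* and the acetylcholine enzyme gene *Chat* were on no array above background. Other genes of such neurons were, namely *Slc10a4* on 6 arrays, *Slc5a7* and *Ddc* on 5, *Slc18a3* and *Slc18a2* on 4 and *Tph2* on 3. Of 20 genes of the cerebellum, a *Hox*-free part of the hindbrain, 5 entered the fit and 0 passed either way (median -0.38), with *Cdh15* at -0.27 (standard error 0.18) and *Zic1* at -0.45 (standard error 0.35). The median was -0.06 without control replicate 1 and -0.87 without control replicate 2, where *Zic1* passed (-0.95, adjusted p = 0.0442 from limma). The mean log2 intensity of this list was 10.35, 10.23 and 9.86 in the mice given OPP, against 11.13, 9.58 and 10.81 in the controls.

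Of 27 forebrain and midbrain transcription factor genes, 8 entered the fit, of which 2 passed upward and 0 downward at an unadjusted p under 0.05 (*Otx1* at 0.39, standard error 0.11, and *Nr4a2* at 0.32, standard error 0.13), beside 1.77% and 2.1% of all tested probes. The median of the list was 0.16, which was 0.00 without control replicate 1 and 0.34 without control replicate 2. Of 18 telencephalon genes, 11 entered the fit, and 3 were higher and 0 lower, beside 1.77% and 2.1% of all tested probes (*Rprm* at 0.54, *Mef2c* at 0.41 and *Nrgn* at 0.67). None of these forebrain, midbrain and telencephalon genes passed after adjustment. The median of the telencephalon list was 0.31, which was 0.08 without control replicate 1 and 0.46 without control replicate 2. The mean log2 intensity of the telencephalon list was 10.92, 10.67 and 10.81 in the mice given OPP, against 10.26, 10.77 and 10.43 in the controls. Of 21 genes of meninges, vessels and blood, 12 entered the fit, of which 6 were lower and 0 higher, unadjusted, and none passed after adjustment, beside 2.1% lower among all tested probes (median -0.46). The 4 of them with the smallest p were *S100a8* at -2.96, *Apod* at -0.57, *Ltf*, which was above background on no OPP array, and *Vwf* at -0.50. Of the 6, 4 were granulocyte genes (*S100a8*, *Ltf*, *S100a9* and *Camp*), each brightest on control array 2. *S100a8* had 12849 there, against 1184 and 1686 on the other controls. *Dcn*, *Ptgds*, *Hba-a1*, *Alas2*, *Flt1* and *Pecam1* were not called and overlapped between the groups. Without control replicate 2, *S100a8* stood at -1.90 (adjusted p = 0.00518 from limma) and *Ltf* also passed after adjustment (adjusted p = 0.0132). The mean log2 intensity of that list was 9.74, 9.97 and 9.65 in the mice given OPP, against 10.18, 11.46 and 10.40 in the controls. The part of region, meninges or blood in the values of *Hoxa5* and *Hoxb5* was not tested.

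**Figure D4:**
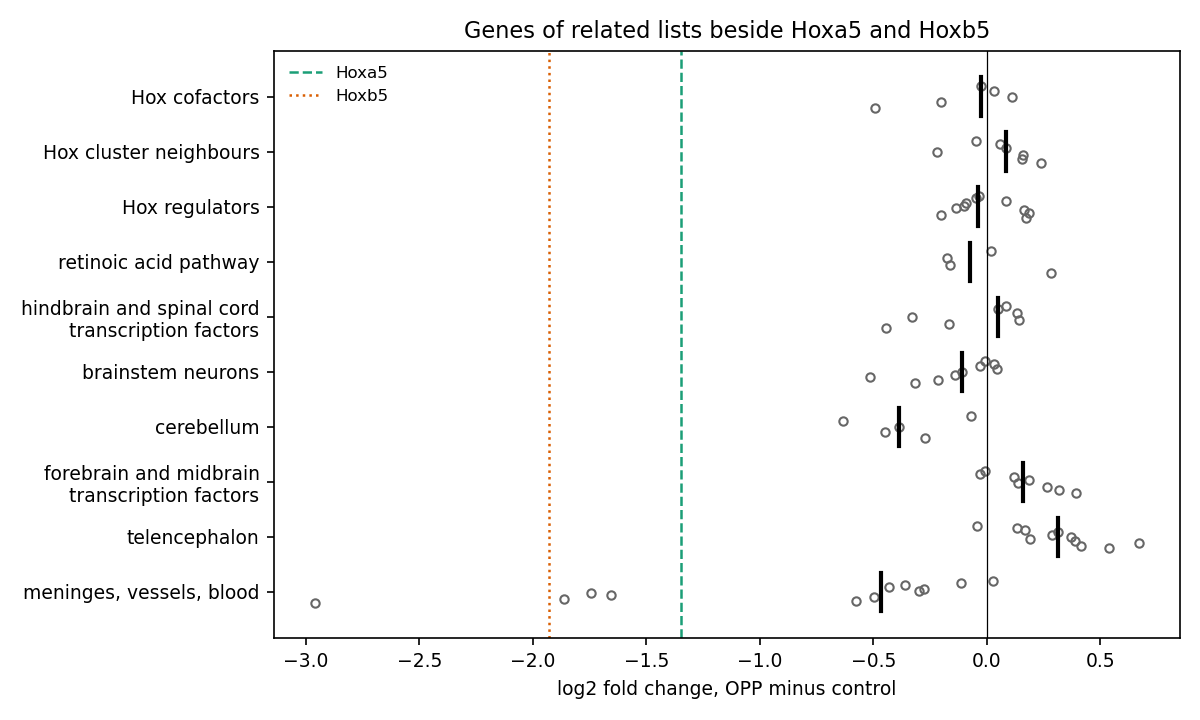
Log2 fold change, OPP minus control, of the tested genes of 10 related lists (open circles, 1 probe per gene, with the list's median as a black bar), beside *Hoxa5* (dashed line, -1.35) and *Hoxb5* (dotted line, -1.93). Apart from 4 granulocyte genes in the list of meninges, vessels and blood, every circle lies nearer to 0 than *Hoxa5* does.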

How the data were processed

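The deposited intensity is the mean over a probe's beads with background left in, and the detection p-value beside it was made by the authors with BeadStudio 1.5.1.3 (per the submitters' notes). The deposited series values, a score on the authors' own scale, were an exact linear function of each array's intensity, with background removed. Probe symbols came from the platform annotation (19398 probes with 1 symbol, 4650 with none, 0 with several). Intensities were scaled to the mean of the control arrays by the median ratio of rank-invariant probes (rank within 5 percentile points, between the 50th and 90th percentile, factors 0.882 to 1.04), floored at 10 and log2-transformed.

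Probes whose detection level averaged over 0.99 in either group (7611) were compared with lmFit and eBayes of limma 3.58.1 (R 4.3.3), with 3 arrays per group and no covariate, and adjusted by Benjamini-Hochberg. The script was tested on simulated data. P-values set the difference between the groups against the spread between arrays within them, which limma draws towards that of all tested probes. The Illumina Custom error model of the methods was not used here. Members, lists and rules were chosen with earlier results of these data known. Every *Hox* probe was accounted for, genes detected on at least 1 array were named, and each list gave at most 4 genes at an unadjusted p under 0.05, else the 2 with the smallest p. Lists used 1 probe per gene, the brightest. Promoters came from RefSeq (GRCm38.p6). Other scalings, background corrections, filters, weights, a replicate block and leaving out each array were tried.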

Additional observations from a re-analysis of the deposited data

How the results depend on the processing

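*Hoxa5* and *Hoxb5* were lower in the mice given OPP in all 13 alternatives each, with sizes that followed the background. Both were selected as lower and their groups did not overlap, so leaving out an array could not turn the direction. The direction therefore supports nothing here. The log2 fold change of *Hoxa5* was -4.68 on the authors' background-subtracted values and -2.87 with normexp correction, and that of *Hoxb5* was -5.36 and -3.74 there and -1.75 with 32 added in place of the floor. Leaving out 1 array gave -1.45 to -1.15 for *Hoxa5* and -2.05 to -1.86 for *Hoxb5*. With a detection p under 0.05, 8 *Hox* genes were above background on at least 1 array. Of all probes, 1 was lower at an adjusted p under 0.05, and 2 were (*Hoxa5* and *Hoxb5*) without the filter, on the authors' values, with normexp, with array weights and with a variance trend, the last chosen after seeing the data. Leaving out 1 array gave 1 to 6 lower and 0 to 1 higher, the extremes without control replicate 2, and array weights gave 1 higher. At an unadjusted p under 0.05, 160 probes were lower and 135 higher. The counts were 499 lower and 482 higher without the filter, 474 and 278 with array weights, and 71 lower and 147 higher without scaling. Leaving out 1 array gave 111 to 525 lower and 77 to 297 higher, the highest of each without control replicate 2, and the lowest numbers higher were 77 without control replicate 1 and 85 without OPP replicate 3. With the replicate number as a block (replicate block), the log2 fold changes were -1.35 for *Hoxa5* and -1.93 for *Hoxb5*, which a balanced block leaves unchanged. In that fit 140 probes were lower and 99 higher unadjusted, and 1 was lower adjusted. Deviations from the group means correlated at -0.27, 0.05 and 0.17 between arrays of the same number. Between arrays of different numbers they correlated at -0.31 to 0.29. With so few arrays this cannot decide whether the numbers pair the mice. Where a value moved, the cause was not tested. The overlap of the groups was also counted without scaling and on the authors' values, which was chosen after seeing the data. Dim probes limit what can be said, since 36 of 41 *Hox* probes were on no array above background.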
